A study of Mus musculus with 8 samples.

Results

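S100 proteins are small calcium-binding proteins built around a pair of EF-hand loops. Most form dimers, and calcium opens a surface that grips a partner protein. S100A8 and S100A9 pair as calprotectin, which fills the cytosol of neutrophils and many monocytes, binds zinc and, once released, acts on Toll-like receptor 4 (TLR4) and on the receptor RAGE. Other members act mostly inside the cell, S100A10 with annexin A2, S100A11 with annexin A1, S100A6 with calcyclin-binding protein and S100A4 with non-muscle myosin. The members described here are the 8 symbols S100a1, S100a4, S100a6, S100a8, S100a9, S100a10, S100a11 and S100a13, all of which are among the 18790 named genes of the deposited tables. They were chosen by symbol, with earlier results of these data known.

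The RNA came from femoral marrow of untreated C57BL/6 mice that carry the Csf1r-EGFP transgene, a reporter driven by the promoter of the macrophage growth factor receptor. The CD11b+ sort was positive for CD11b, F4/80 and VCAM1, negative for Ly6G and low for the reporter. The CD11b- sort lacked CD11b and was positive for F4/80, the reporter and VCAM1. Each sort had 4 biological replicates, sequenced by SmartSeq2, a full-length cDNA protocol that does not mark strand. The sources used here do not give the age or sex of the mice, or how many were used for a replicate. The series title asks in effect whether such sorts contain macrophages or other cells that carry pieces of them.

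Libraries held 27462607 to 47951234 gene counts. Levels are in CPM, the count of a gene scaled to a common library total. Where a gene had no count, its level in that library could still be as high as 0.0626 to 0.109 CPM, depending on the library. These limits and the counting intervals cover counting error only, since the protocol's reads carry no molecular identifiers. The summed level of 14 neutrophil genes was 67518 to 94684 CPM in CD11b+ and 155 to 698 CPM in CD11b- libraries, and that of 15 erythroid genes 772 to 1292 and 34158 to 45990 CPM. That of 14 macrophage genes was 1671 to 1943 CPM in CD11b+ and 1317 to 1720 CPM in CD11b-. Of these 14 genes 3 were higher in CD11b+, 2 lower and 9 not called (edgeR test described below, 29.7% called over all genes tested). The macrophage sums therefore add up genes that differed in opposite directions. Of the 3 higher genes, Adgre1 and Vcam1 encode surface antigens that both sorts were selected for. The part of this selection in their differences was not tested. Slc40a1 was the other higher gene (1.60-fold), a call lost without CD11b+ replicate 2. The lower genes were Hmox1 (2.19-fold) and C1qc (1.74-fold). The C1qc call was lost in 3 of 8 fits that left out a library. Eosinophil genes (9) summed to 6823 to 19563 CPM in CD11b+ and 71.2 to 470.3 CPM in CD11b-, and B lineage genes (12) to 53.5 to 135 and 1228 to 2565 CPM. The part of these cell types in the S100 differences was not tested. In bulk samples, fewer cells of a type and less RNA per cell cannot be told apart.

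S100a8 and S100a9 differ most between the sorts, and their promoters are shown for that reason, together with that of S100a13, because its start lies 105 bases from that of S100a1 on the opposite strand. Of the 8 members, 7 have a RefSeq promoter window (250 bases before to 50 after the start, build GRCm38.p6) in the reference used here. Capitals in the first pair mark matches to motifs searched on both strands, TTGCNNAA for C/EBP factors, GAGGAA (read TTCCTC on the other strand) for PU.1 and AGATAA for GATA factors. Capitals in the S100a13 window mark the 204 bases that it shares with the S100a1 window.
S100a8, chr3:90668821-90669120, plus strand: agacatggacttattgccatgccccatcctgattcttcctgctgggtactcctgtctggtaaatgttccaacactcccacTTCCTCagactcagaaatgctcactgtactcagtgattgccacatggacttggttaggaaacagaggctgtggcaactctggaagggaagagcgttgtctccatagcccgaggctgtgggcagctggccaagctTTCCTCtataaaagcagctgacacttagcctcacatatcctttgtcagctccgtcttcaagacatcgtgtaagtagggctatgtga
S100a9, chr3:90695672-90695971, minus strand: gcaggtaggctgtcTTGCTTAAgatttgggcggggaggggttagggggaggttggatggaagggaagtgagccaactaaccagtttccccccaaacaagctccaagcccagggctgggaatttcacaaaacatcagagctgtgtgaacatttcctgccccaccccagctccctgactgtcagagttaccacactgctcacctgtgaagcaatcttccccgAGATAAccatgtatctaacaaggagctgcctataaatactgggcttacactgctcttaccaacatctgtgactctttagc
S100a13, chr3:90514185-90514484, plus strand: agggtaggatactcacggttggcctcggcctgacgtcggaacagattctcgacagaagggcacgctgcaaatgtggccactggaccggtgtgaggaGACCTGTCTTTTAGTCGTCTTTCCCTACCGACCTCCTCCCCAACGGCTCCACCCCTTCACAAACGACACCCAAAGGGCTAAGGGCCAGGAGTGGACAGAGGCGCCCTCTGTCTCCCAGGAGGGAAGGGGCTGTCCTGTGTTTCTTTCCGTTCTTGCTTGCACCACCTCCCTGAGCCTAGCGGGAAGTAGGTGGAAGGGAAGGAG

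The S100a8 window has the PU.1 letters at 170 and 36 bases before the start. The S100a9 window has the C/EBP letters at 236 bases and the GATA letters at 30 bases before the start. Over the 7 windows the PU.1 letters occur in 3 (S100a4, S100a8 and S100a11), the GATA letters in 2 (S100a9 and S100a11) and the C/EBP letters in 1 (S100a9), and none of these matches overlaps another. Of all 32851 windows of the same length, 28.3% hold the PU.1 letters, 11.2% the GATA letters and 10.8% the C/EBP letters. A match of letters is a description and does not show binding.

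S100 transcripts were far more abundant in CD11b+ than in CD11b- libraries. Of the 8 members 7 passed the filter on low counts. Of these 6 were higher in CD11b+ and S100a10 was not called, with p-values from edgeR's quasi-likelihood test, adjusted by Benjamini-Hochberg over 11965 genes and taken as called up to 0.05. Over all genes tested, 29.7% were called, 14.6% as higher in CD11b+. In the same 6 members every CD11b+ library lay above every CD11b- library, as in 18.1% of all genes tested, while 18.4% lay wholly below. The median log2 difference (CD11b+ minus CD11b-) was 2.68 over the 7 members and -0.01 over all genes tested. Without CD11b+ replicate 3 the number called was 5.

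**Figure D1:**
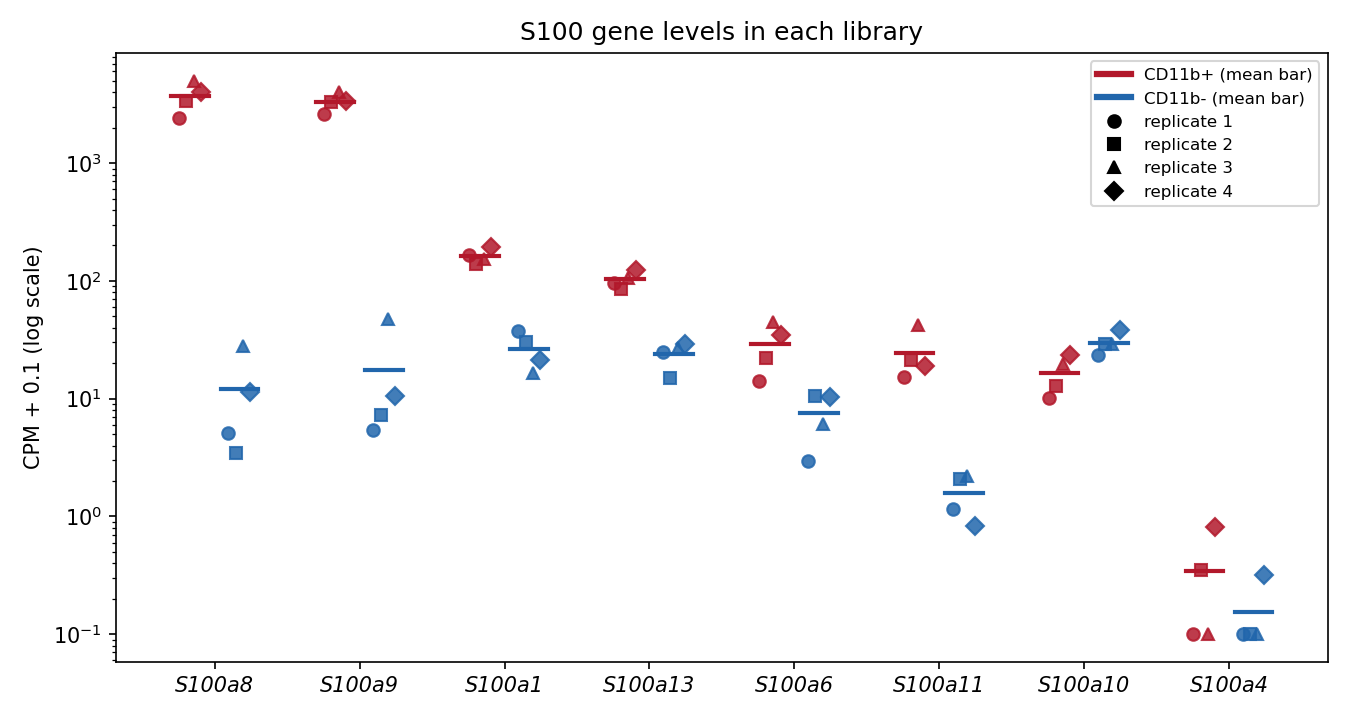
CPM plus 0.1 on a log axis for the 8 S100 genes in each library, CD11b+ in red and CD11b- in blue, with symbols for the replicates and a bar at each mean (n = 4). S100a8 and S100a9 stand at 2435 CPM or more in the CD11b+ libraries and at 47.4 CPM or less in the CD11b- libraries, and the S100a10 values of the sorts overlap.

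S100a8 and S100a9, the calprotectin subunits, carried nearly all of the S100 signal of the CD11b+ sort. In CD11b+ replicates 1 to 4 the S100a8 level was 2435, 3393, 5011 and 3998 CPM, against 4.98, 3.33, 28.0 and 11.4 CPM in CD11b- replicates 1 to 4. The lowest CD11b+ library lay far above the highest CD11b- library. Means were 3709 ± 1080 and 11.9 ± 11.3 CPM (SD, n = 4), a 307-fold difference with a 95% interval of 86.2 to 1097 (log2 8.26, SE 0.82, edgeR adjusted p = 5.1e-05). S100a9 stood at 2616, 3299, 4014 and 3364 CPM in CD11b+, against 5.33, 7.20, 47.4 and 10.5 CPM in CD11b-. Again no library of one sort reached the other, and CD11b- replicate 3 was the highest of its group. S100a9 was 185-fold higher in CD11b+, with a 95% interval of 49.4 to 694 (log2 7.53, SE 0.85, edgeR adjusted p = 0.000118).

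The size of both differences depended on CD11b- replicate 3. Without it the fold was 599 for S100a8 and 458 for S100a9. The same library had the highest CD11b- values of the neutrophil granule genes Ngp (532 CPM, against 90.2 to 132 in the other three), Camp (20.3 against 8.70 to 11.8) and Chil3 (16.6 against 2.14 to 6.15). Of the 13 neutrophil genes with a count in CD11b-, 10 were highest in replicate 3, while Cxcr2, Csf3r and Cd177 were highest in replicates 1, 2 and 4. How often each CD11b- replicate was highest over all genes was not counted, here or for the other lists. The 14 listed neutrophil genes summed to 698 CPM in replicate 3, most of it Ngp, and to 155 to 179 CPM in the other CD11b- libraries. The 10 monocyte genes summed to 250.4 to 404 CPM in CD11b- and to 3729 to 5962 CPM in CD11b+ libraries. Most of the CD11b+ sum was Lyz2 (3217 to 5250 CPM). Of these 10 genes 6 were higher in CD11b+, 1 lower and 3 not called, against 29.7% called over all genes tested. With a library left out, the higher genes Tgfbi, Csf1r and Ms4a6c lost their call in 6, 3 and 3 of 8 fits. Ccr2 and Ctss, not called, gained a call in 2 and 1 of these fits. The part of either cell type in the S100a8 and S100a9 values was not tested. Of 7 genes on a list named primary granule, 6 were highest within CD11b- in replicate 1, among them Mpo and Elane, and Hp in replicate 3. The name of the list may not hold for each of its genes, Hp among them. The summed level of these 7, most of it Mpo, was 6831, 4481, 1646 and 485 CPM in CD11b- replicates 1 to 4. Of the 14 neutrophil genes 11 were higher in CD11b+ and 3 were not called (14.6% of all genes tested were higher), and Itgb2l, a neutrophil integrin subunit, had no count in any CD11b- library.

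**Figure D2:**
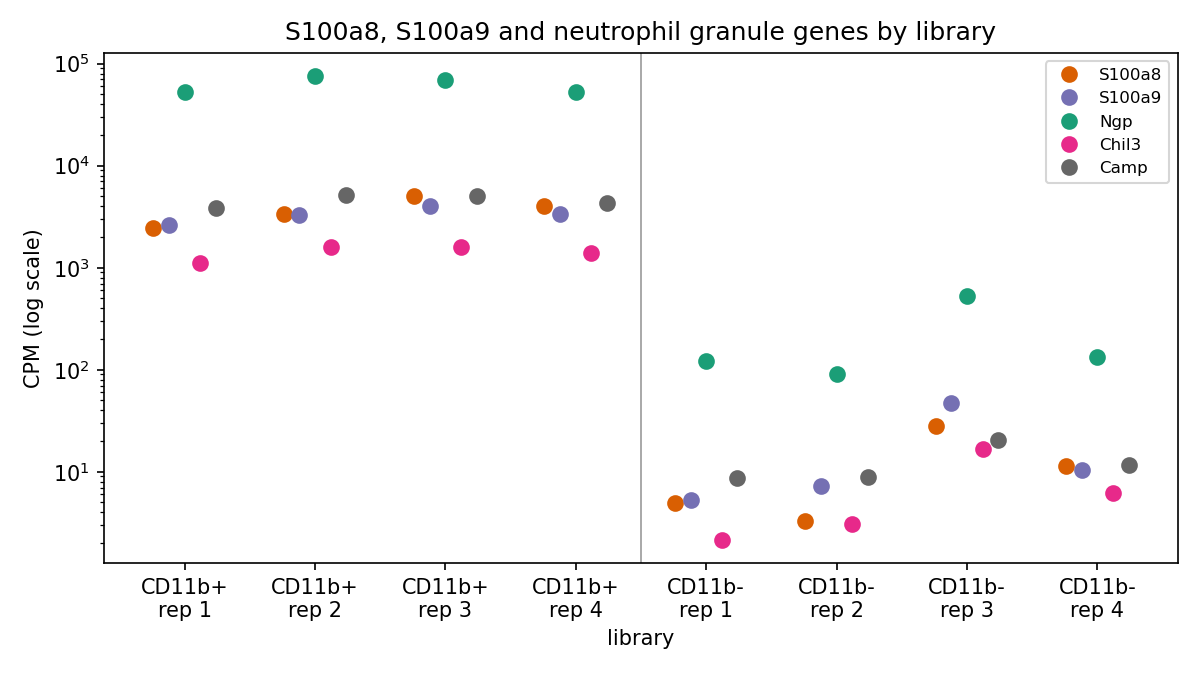
CPM on a log axis of S100a8, S100a9 and the neutrophil genes Ngp, Chil3 and Camp in each of the 8 libraries, spread sideways for visibility. All 5 genes are highest, within the CD11b- sort, in replicate 3, where S100a9 reached 47.4 CPM.

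The genes whose profiles over the 8 libraries were most like those of S100a8 and S100a9 were both neutrophil genes. Likeness was the root mean square distance between log2(CPM + 1) profiles, each centred on its mean, and a smaller distance means a closer profile. For S100a8 the nearest were Ngp (distance 0.37) and the chitinase-like gene Chil3 (0.45), and for S100a9 Chil3 (0.22) and Ngp (0.39). Ngp was 283-fold and Chil3 202-fold higher in CD11b+ (edgeR adjusted p = 3.5e-05 and 4.73e-05), or 580-fold and 400-fold without CD11b- replicate 3.

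Within a library the balance of calprotectin transcripts varied little in CD11b+. The count of S100a9 over that of S100a8 was 1.07, 0.97, 0.80 and 0.84 in CD11b+ and 1.07, 2.16, 1.69 and 0.92 in CD11b-. The ranges overlapped, and the difference was within the spread (log2 -0.59, exact two-sided permutation p = 0.143, adjusted p = 0.206 over the 6 ratios compared, where 4 against 4 allows no p below 0.0286). Against Ngp, S100a8 stood at 0.0450 to 0.0753 in CD11b+ and 0.0369 to 0.0862 in CD11b- (log2 0.18, exact permutation p = 0.657, adjusted p = 0.657). S100a9 against Ngp stood at 0.0438 to 0.0634 and 0.0440 to 0.0890 (log2 -0.41, exact permutation p = 0.171, adjusted p = 0.206). A p above the threshold does not show that the ratios are alike.

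S100a1, best known as a calcium regulator of heart and skeletal muscle, and S100a13, which takes part in the release of FGF1 and interleukin 1 alpha, lie head to head and had similar differences. S100a1 was at 165, 139, 153 and 193 CPM in CD11b+, against 37.2, 30.4, 16.4 and 21.4 CPM in CD11b-. The lowest CD11b+ value was well above the highest CD11b- value, and the gene was 6.39-fold higher (95% interval 4.35 to 9.39, edgeR adjusted p = 3.4e-05). S100a13 was at 96.7, 84.9, 106 and 124 CPM in CD11b+, against 24.9, 14.9, 26.8 and 28.9 CPM in CD11b-, again without overlap. It was 4.41-fold higher (95% interval 2.996 to 6.50, edgeR adjusted p = 0.000142). The 95% intervals of this pair overlap. In GENCODE M21 the exons of S100a1 and S100a13 share no base with those of any other gene. CD11b- replicate 1 was the highest of its sort for S100a1, and replicate 4 for S100a13.

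Profiles nearest to S100a1 were those of the G protein subunit gene Gng12 (distance 0.12, 5.87-fold higher, edgeR adjusted p = 2.2e-05) and of Csgalnact2, an enzyme of chondroitin sulfate synthesis (0.15, 5.88-fold, adjusted p = 8.38e-05). Nearest to S100a13 were the aldehyde dehydrogenase gene Aldh2 (0.14, 4.33-fold, adjusted p = 0.000401) and the mitochondrial carrier gene Slc25a12 (0.21, 3.82-fold, adjusted p = 5.48e-05). None of these 4 is on the neutrophil list. The called genes of that list differed by at least 22.7-fold, and its other genes lay below the 50 CPM required. This measure could therefore hardly have placed any of them nearest, and their absence shows nothing about neutrophils.

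S100a11 and S100a10 are listed next to each other on chromosome 3, apart from the main S100 cluster, and had unlike differences. S100a11 was at 15.2, 21.4, 42.4 and 19.0 CPM in CD11b+, against 1.05, 1.99, 2.12 and 0.73 CPM in CD11b-. The CD11b+ libraries were all above the CD11b- libraries, and the gene was 16.7-fold higher (95% interval 6.68 to 42.0, edgeR adjusted p = 0.00057). Reads of S100a11 may be shared with its pseudogene, which GENCODE M21 lists. S100a10 was at 10.1, 12.6, 19.7 and 23.5 CPM in CD11b+, against 23.3, 28.8, 29.3 and 37.8 CPM in CD11b-. The highest CD11b+ library just passed the lowest CD11b- library. The S100a10 difference was log2 -0.82 (95% interval -1.60 to -0.04), with an unadjusted p of 0.0417 and an edgeR adjusted p of 0.113, and its adjusted p ran from 0.0647 to 0.257 over the alternatives. The other genes around this pair, Lce3d, Rptn, Tchh, Tdpoz2, Tdpoz4 and Them4, were at 7.37 CPM or less in every library. Of these only Them4 passed the filter, and it was not called (edgeR adjusted p = 0.554).

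Profiles nearest to S100a11 were those of the actin-binding gene Twf2 (distance 0.37) and the protease inhibitor gene Serpine2 (0.40), which were 8.44-fold and 9.06-fold higher in CD11b+ (edgeR adjusted p = 1.33e-05 and 9.56e-06). Nearest to S100a10 were the ribosomal protein gene Rpl41 (0.17) and Atp5d, a subunit of ATP synthase (0.18). Rpl41 was 1.92-fold lower in CD11b+ (edgeR adjusted p = 0.00648). Atp5d was 1.60-fold lower (edgeR adjusted p = 0.0221), a call lost in 4 of the 8 fits that left out a library, CD11b+ replicate 1, 2 or 3 or CD11b- replicate 4 (adjusted p up to 0.0629).

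S100a6, or calcyclin, found in many dividing and stromal cells, was at 14.2, 22.2, 44.7 and 34.9 CPM in CD11b+, against 2.84, 10.5, 6.02 and 10.3 CPM in CD11b-. The sorts did not overlap, but the lowest CD11b+ library was only a little above the highest CD11b- library. S100a6 was 4.01-fold higher (95% interval 1.76 to 9.13, edgeR adjusted p = 0.0172). The call was lost without CD11b+ replicate 3 (adjusted p = 0.0628, from 0.00116 to 0.0628 over all alternatives). Its nearest profiles were those of the immediate early gene Ier2 (distance 0.41, 4.45-fold higher, edgeR adjusted p = 0.000128) and of Ptgr1, a reductase of eicosanoids (0.43, 4.43-fold, adjusted p = 0.000353).

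S100a4, a regulator of non-muscle myosin often abundant in motile leukocytes, was close to undetected. It had 0, 10, 0 and 29 counts in the CD11b+ libraries and 0, 0, 0 and 6 in the CD11b- libraries. Its highest value was 0.71 CPM, in CD11b+ replicate 4. Pooled over libraries this is 0.237 CPM in CD11b+ (exact 95% counting interval 0.168 to 0.324) and 0.0485 CPM in CD11b- (0.0178 to 0.106). S100a4 did not pass the filter on low counts and was not tested. In GENCODE M21, 302 of its 584 exon bases (51.7%) are shared with exons of the gene model Gm42674, counted on either strand. That symbol was not analysed here. Whether counting lost reads of S100a4 to an overlapping model was not tested.

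**Figure D3:**
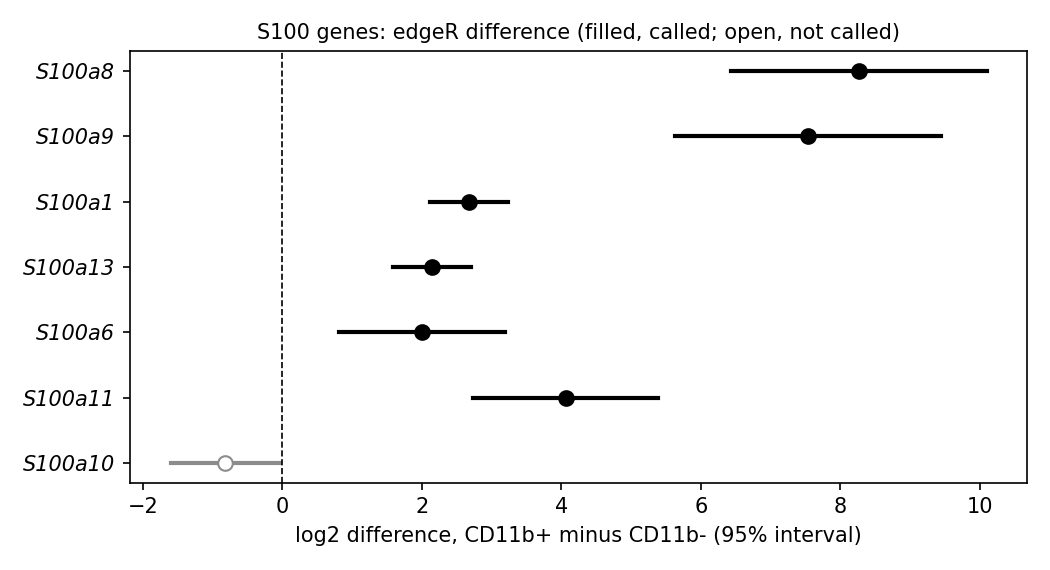
The log2 difference (CD11b+ minus CD11b-) and its 95% interval for the 7 members tested with edgeR, filled where the adjusted p was at most 0.05. S100a8 (8.26) and S100a9 (7.53) lie apart from S100a1, S100a13, S100a6 and S100a11 (2.00 to 4.07), and S100a10 lies at -0.82.

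Other S100 symbols were at the edge of detection. Of 10 further family symbols looked for, 8 are in the tables and none passed the filter, so none was tested. S100a5 and S100a16 had no count in any library, which allows up to 0.0182 CPM over the pooled CD11b+ libraries and 0.0243 CPM over the pooled CD11b- libraries. S100a7a had 66 and 39 counts in CD11b- replicates 1 and 2 and none in the other 6 libraries. S100a2, S100a3, S100b, S100g and S100z had at most 22 counts in a library. Between S100a1 and S100a9 the main cluster on chromosome 3 holds 11 symbols of the tables, all of S100 genes. Of these, S100a1, S100a13, S100a6, S100a8 and S100a9 passed the filter, and the 6 that lie among them did not.

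Levels between genes were compared per length, as CPM per kilobase of the union of exons. In CD11b+ S100a9 was at 6366 ± 1095 and S100a8 at 5345 ± 1556 CPM per kb (SD, n = 4), the 6th and 8th highest of 18088 genes with a length. Their ranges overlapped, and with the longest transcript as length S100a8 came first (7449 against 6403). S100a1 followed at 234 ± 32.8 and S100a13 at 144 ± 23.1 CPM per kb, with no overlap between them. S100a11 (47.9 ± 23.8), S100a6 (21.2 ± 9.88) and S100a10 (13.6 ± 5.11) came next, each overlapping its neighbour in this order, and S100a4 was last at 0.413 ± 0.575. In CD11b- the order was S100a1 (38.0 ± 13.3), S100a9 (33.7 ± 38.2), S100a13 (33.4 ± 8.69), S100a10 (24.6 ± 4.96) and S100a8 (17.2 ± 16.3), and these 5 did not separate beyond their spread. S100a6 (5.41 ± 2.68), S100a11 (2.88 ± 1.35) and S100a4 (0.0933 ± 0.187) had lower means, though S100a6 overlapped S100a8. With the longest transcript S100a10 was at 24.1 in CD11b+ and led the CD11b- order at 43.5 CPM per kb. S100a6 was then at 37.0 in CD11b+ and 9.45 in CD11b-. The S100 members took 0.535% to 0.939% of all counts in CD11b+ libraries and 0.00970% to 0.0156% in CD11b- libraries. S100a8 and S100a9 gave 94.4% to 96.1% of those S100 counts in CD11b+ and 10.4% to 48.3% in CD11b-.

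Receptor and signalling genes of S100A8 and S100A9 were called in both directions. Of 16 receptor and signalling genes 14 were tested, of which 3 were higher, 2 lower and 9 not called in CD11b+ (median log2 difference 1.85), close to the 29.7% called over all genes tested. Lower in CD11b+ were Bsg, which encodes the S100A9-binding protein basigin (351 ± 24.3 against 3172 ± 231 CPM, 8.83-fold, edgeR adjusted p = 1.39e-06), and the scavenger receptor Cd36 (39.4 ± 12.02 against 770 ± 120 CPM, 19.1-fold, adjusted p = 2.66e-06). Both genes are also known in red cell precursors. The 15 erythroid genes were all called as lower in CD11b+ (summed levels given above), against 1798 of the 11965 genes tested. The part of red cell precursors in the Bsg and Cd36 differences was not tested. Higher were the adaptors Myd88 (3.60-fold, adjusted p = 0.000354) and Tirap (8.06-fold, adjusted p = 0.00127) and the kinase Irak4 (4.03-fold, adjusted p = 0.00297), which act downstream of TLR4. Tlr4 was at 18.5, 51.5, 14.95 and 3.29 CPM in CD11b+, against 2.24, 4.10, 8.24 and 5.83 CPM in CD11b-, overlapping and not called (edgeR adjusted p = 0.0717, 0.0218 without CD11b+ replicate 4). Ager, which encodes RAGE, was at 1.34 ± 0.945 and 0.0708 ± 0.124 CPM and did not pass the filter.

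Intracellular partners differed from gene to gene. Of 19 partner genes 16 were tested, of which 7 were higher, 3 lower and 6 not called in CD11b+ (median log2 difference 0.44, against 29.7% called over all genes). Of the 10 called, 6 differed by at least 2-fold, against 2843 of 3549 over all genes. Anxa1, which encodes the partner of S100A11, was higher in CD11b+ by 38.5-fold (970 ± 147 and 26.0 ± 9.84 CPM, edgeR adjusted p = 2.31e-06). Anxa2, which encodes the partner of S100A10, had a mean of 351 ± 47.9 in CD11b+ and 64.3 ± 18.1 CPM in CD11b- (5.63-fold, adjusted p = 1.53e-05), and Myh9, a non-muscle myosin heavy chain bound by S100A4, one of 50.6 ± 15.4 and 7.57 ± 1.55 CPM (6.88-fold, adjusted p = 0.00019). Cacybp, which encodes the S100A6 partner, was at 117 ± 21.1 and 112 ± 10.4 CPM and was not called (adjusted p = 0.662), nor was the co-chaperone gene Fkbp4 (286 ± 31.3 and 262 ± 42.9 CPM, adjusted p = 0.422). Lower were Myh10, another non-muscle myosin (18.8-fold, adjusted p = 0.00256, and 31.9-fold without CD11b+ replicate 1), Ahnak (1.97-fold, adjusted p = 0.0165) and Trp53 (1.71-fold, adjusted p = 0.0268). The Ahnak call was lost without CD11b+ replicate 1 or CD11b- replicate 1 (adjusted p up to 0.0519), and the Trp53 call without any of 6 libraries, all but CD11b+ replicate 4 and CD11b- replicate 3 (up to 0.0774).

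Setting an S100 gene against its partner within a library showed the unlike course of S100a10 and Anxa2. The S100a10 count was 0.0361, 0.0344, 0.0535 and 0.0608 of the Anxa2 count in CD11b+ and 0.255, 0.555, 0.521 and 0.651 of it in CD11b-. The sorts did not overlap, and the ratio was 10.4-fold higher in CD11b- (log2 -3.39, exact permutation p = 0.0286, the smallest that 4 against 4 allows, adjusted p = 0.0857). S100a6 over Cacybp was 0.123 to 0.437 in CD11b+ and 0.0241 to 0.0986 in CD11b-, 3.88-fold higher in CD11b+ (log2 1.96, exact permutation p = 0.0286, adjusted p = 0.0857). S100a11 over Anxa1 was 0.0191 to 0.0370 in CD11b+ and 0.0265 to 0.128 in CD11b-, overlapping (log2 -1.21, exact permutation p = 0.0571, adjusted p = 0.114). None of the 6 ratios passed an adjusted threshold of 0.05. With 4 against 4, a ratio whose sorts lie fully apart could pass only if most of the other ratios did too. This outcome therefore cannot tell equal ratios from unequal ones. S100a4 over Myh9 was not computed because S100a4 had libraries without a count.

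**Figure D4:**
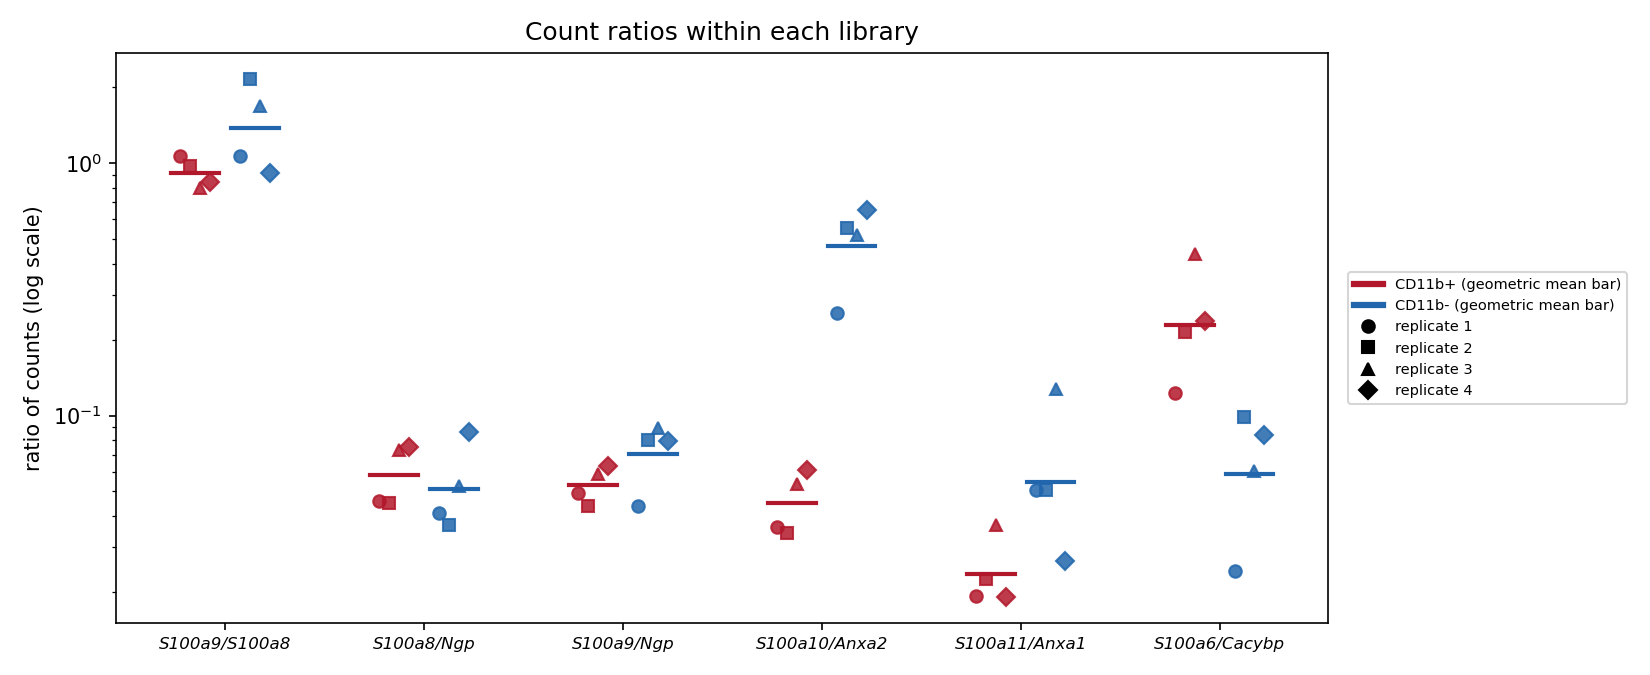
Count ratios within each library on a log axis for 6 gene pairs, CD11b+ in red and CD11b- in blue, with symbols for the replicates and a bar at each geometric mean (n = 4). S100a10 over Anxa2 (at most 0.0608 in CD11b+, at least 0.255 in CD11b-) and S100a6 over Cacybp are the pairs whose sorts do not overlap.

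Transcription factors that act on S100a8 and S100a9 in myeloid cells were mostly higher in CD11b+. Of 15 such genes 14 were tested, of which 9 were higher, 2 lower and 3 not called (median log2 difference 1.62, share called over all genes 29.7%). With each library left out in turn, 10 to 12 of them were called. Cebpe, which drives late granulocyte maturation, was 119-fold higher at 1136 ± 111 against 9.90 ± 8.38 CPM (edgeR adjusted p = 0.00016), and Cebpd 45.1-fold (adjusted p = 0.00225, and 72.6-fold without CD11b- replicate 2). Stat3 had a mean of 426 ± 113 in CD11b+ and 112 ± 26.5 CPM in CD11b- (3.94-fold, adjusted p = 0.000132). Lower in CD11b+ were the interferon regulatory factors Irf7 (9.998-fold, 34.5 ± 7.54 against 353 ± 87.9 CPM, adjusted p = 1.61e-05) and Irf8 (4.03-fold, adjusted p = 0.00906). Within CD11b- libraries Cebpe was at 19.6, 13.7, 5.44 and 0.84 CPM in replicates 1 to 4. Of the 15 listed genes 4 (Atf3, Gfi1, Irf7 and Rela) were highest within CD11b- in replicate 3, 5 in replicate 1, 2 in replicate 2 and 4 in replicate 4. The like shares over all genes were not counted.

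Other EF-hand genes share the calcium-binding fold with the S100 family. Of 23 such genes 21 were tested, of which 11 were higher, 1 lower and 9 not called in CD11b+ (median log2 difference 0.65, against 29.7% called and 14.6% higher over all genes). With each library left out in turn, 10 to 12 of them were called. Of the 12 called genes 7 differed by at least 2-fold, against 2843 of 3549 over all genes. The actin-bundling gene Lcp1 was 3.40-fold higher at 2507 ± 226 against 761 ± 89.6 CPM (edgeR adjusted p = 1.04e-05). The gene called as lower, Calm3, was 1.48-fold lower (172 ± 7.71 against 262 ± 23.7 CPM, adjusted p = 0.00947). The largest difference was that of Gca, which encodes grancalcin of neutrophils, at 144 ± 24.6 CPM in CD11b+. It had 86 counts in CD11b-, all but 1 in replicate 4 (199.6-fold, adjusted p = 0.00239). Without that library the edgeR fold was 10738. The pooled levels differed by 210-fold with all libraries and by 14035-fold without CD11b- replicate 4. The latter had an exact counting interval of 2519 to 554359, since 1 count remained. Nucb2, another EF-hand gene, had a mean of 300.2 ± 96.4 in CD11b+ and 29.1 ± 19.9 CPM in CD11b- (10.7-fold, adjusted p = 0.000274).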

How the data were processed

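The authors deposited whole-number counts per gene symbol for each library, in files whose names say FPKM, and a table of CPM, which equals each count divided by its library's total to within 0.0005. The submitters' processing notes name TopHat2, HTSeq 0.10.0, DESeq2 and mm9 without saying what each was used for. The sources used here do not state the gene annotation, the strand setting or how reads with several hits were handled. Levels are the deposited CPM.

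Counts were tested with edgeR 4.0.16 in R 4.3.3 (TMM scaling, filterByExpr with a minimum count of 10, quasi-likelihood test, prior count 0.125, Benjamini-Hochberg over all genes tested), with no covariate. Of 18817 rows, 27 carry numbers in place of symbols (0.205% to 0.514% of counts) and stayed out of tests. Standard errors and intervals were worked back from the F statistic. Alternatives used DESeq2 1.42.0, RLE size factors, limma 3.58.1 with pseudocounts of 1 and 0.1, other filters, totals without the 20 most abundant genes, a 2-fold minimum, a block for the replicate number and leaving out each library. The fitting script was tested on simulated counts.

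Exon lengths are from GENCODE M21, of another build (GRCm38) than mm9, by symbol (18088 of 18790 genes, 96.3%), and gene order and promoters from RefSeq (GRCm38.p6). Replicates of a sort all differed by more than sampling noise (chi-square over degrees of freedom 125 to 217). Members and lists were chosen with earlier results of these data known. Genes were named by rule: all members, for each the 2 nearest profiles among genes of at least 50 CPM, the partner genes of the ratios, the 2 most abundant and the 2 most changed called genes of each other list, and list members that show movement both ways (Myd88, Tirap, Irak4, Ahnak, Trp53, Irf7, Irf8 and Calm3, picked after their values were seen). Tlr4, Ager, Cxcr2, Csf3r, Cd177, Lyz2, Atf3, Gfi1 and Rela lie outside that rule and were also chosen after their values were seen. The same holds for Tgfbi, Csf1r, Ms4a6c, Ccr2, Ctss, Adgre1, Vcam1, Slc40a1, Hmox1 and C1qc. A gene that the rule names is not reported here. From the cell type lists only the summed levels, some counts of genes called, neutrophil and primary granule genes and some monocyte and macrophage genes are given.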

Additional observations from a re-analysis of the deposited data

Results flagged for a closer look

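In 30 groups of 4 values (each S100 gene, the ratios and the S100 share of counts, in each sort), 3 had a library far from the rest by Dixon's criterion, which compares the gap to the nearest value with the range. Chance flags about 1 in 20 groups. S100a9 in CD11b- replicate 3 (47.4 CPM, against 5.33 to 10.5 CPM) had a gap of 0.878 of the range. The S100a9 to Ngp ratio in CD11b- replicate 1 (0.0440, against 0.0790 to 0.0890) had 0.831 on the log2 scale. S100a4 in CD11b- replicate 4 had a gap of 1 (0.218 CPM, the other three CD11b- libraries at 0), which rests on 6 counts.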

How the results depend on the processing

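The 6 members called stayed called, and S100a10 stayed uncalled, under every alternative run except that S100a6 lost its call without CD11b+ replicate 3, where its log2 difference was 1.72. With each library left out, the S100a6 difference ranged from 1.72 to 2.25 and the number of members called from 5 to 6. No direction of a tested member turned. For all genes the number called ranged from 2843 (a minimum of 2-fold) to 4485 (limma on log2(CPM + 1)), against 3549. The same-numbered libraries of the sorts showed little shared deviation (correlations of deviations 0.00225 to 0.0430). The best match in the other sort carried the same number for replicate 4 only. Such correlations cannot show whether same-numbered sorts came from the same mice. With the replicate block 3195 genes and the same number of members, 6, were called, and the S100a9 log2 difference was 8.20 in place of 7.53. With the replicate block the S100a8 difference was 8.74. The ratios kept their direction in all 60 alternatives, though the replicate block could not change their mean differences. Paired by replicate number, S100a9 over S100a8, S100a8 over Ngp and S100a9 over Ngp kept it in 3 of 4 pairs. The other ratios kept it in 4 of 4. Of levels per length, 5 moved beyond their spread with the longest transcript as length, all of S100a6, S100a8 and S100a10. Without a filter S100a4 was tested and not called (edgeR adjusted p = 0.626). S100a4 and the other rare S100 genes had few counts, in some libraries only, and did not pass the filter. The reason for their low counts was not tested.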
